A study of Mus musculus with 4 samples.

Results

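The bone morphogenetic protein (BMP) genes described here are 5 ligands (*Bmp2*, *Bmp4*, *Bmp5*, *Bmp6* and *Bmp7*) and 3 receptors (*Bmpr1a*, *Bmpr1b* and *Bmpr2*), selected by gene symbol. They are 8 of the 32285 genes in the deposited matrices, and all 8 were found in all 4 libraries. The libraries are 10x Genomics single-cell RNA sequencing (scRNAseq) of the mouse cardiogenic region, dissected whole on embryonic day E10.5. Libraries 6 and 8 came from *Tie2-cko* embryos (labelled Nfatcre-Tie2flfl), in which *Nfatc1*-Cre, knocked into a gene that is active in endocardium, deleted a floxed *Tie2* allele. Libraries 5 and 7 came from littermate controls (labelled Tie2flfl) that carried the same floxed *Tie2* alleles without Cre, so no library was free of the floxed allele. By the study's methods the mice had a mixed genetic background (129 with C57/BL6), embryos of both sexes were used, and there were 2 hearts per genotype from the same litter. Nothing in the labels ties a library to a heart or to a partner library, so the p-values given here measure only the spread between these libraries.

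BMP ligands are secreted proteins that act on the cell that makes them and on its neighbours. They bind a complex of type I receptors (BMPR1A or BMPR1B) and type II receptors (such as BMPR2), which phosphorylates SMAD1, SMAD5 and SMAD9. These enter the nucleus with SMAD4 and turn on genes such as the *Id* family, *Msx2* and the inhibitory *Smad6* and *Smad7*. In the heart at the time of cushion formation, BMP made by the myocardium of the atrioventricular canal (AVC) and the outflow tract (OFT) reaches the endocardial cells (EdCs) across the cardiac jelly, and is needed for the endocardium there to form cushion mesenchyme.

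On the mouse genome build GRCm38, *Bmp2* lies on chromosome 2 (133552159 to 133562885, plus strand) and *Bmp7* on the same chromosome (172868012 to 172940321, minus strand). *Bmp4* (46383520 to 46390669) and *Bmpr1a* (34410734 to 34503341) lie on the minus strand of chromosome 14. *Bmp5* is on chromosome 9 (75775364 to 75900310, plus strand) and *Bmp6* on chromosome 13 (38345107 to 38500302, plus strand). *Bmpr1b* is on chromosome 3 (141837136 to 142169425, minus strand) and *Bmpr2* on chromosome 1 (59763400 to 59879014, plus strand). All are protein coding, and none overlaps another annotated gene on its own strand.

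The libraries held 8877 to 18488 barcodes and 169361996 to 259775540 unique molecular identifiers (UMIs, each standing for 1 captured transcript), and 33419 cells were kept after filtering and doublet removal. *Tek*, which encodes TIE2, checked the labels: its level in chamber EdCs was 0.883 and 1.02 UMIs per 10000 in the controls against 0.13 and 0.15 in *Tie2-cko*, and in cushion EdCs it was 0.875 and 1.74 against 0.312 and 0.231. Vascular endothelium, outside the endocardium, kept *Tek* at 0.641 to 0.763 in all libraries. Libraries 5 and 6 stood apart from libraries 7 and 8, with 47.3% and 37.8% of cells in the 9 cardiac types against 75.1% and 77.6%, and most ventricular and atrial cardiomyocytes (CMs) of the 2 pairs fell into different clusters. Library 6 was the deepest per cell, with a median of 25875 UMIs against 14878 to 17433 in the others. Between 29 and 62 cell barcodes were shared by each pair of libraries (0.327% to 0.521% of the smaller one). Of 26 clusters, 22 received a cell type name from marker genes, 1 is called by its leading gene *Prrx1*, and 3 were set aside for low UMI numbers; the BMP genes and 51 other genes of the pathway were kept out of the genes used for clustering. Levels below are means over the cells of a type of UMIs per 10000 UMIs, given per library in the order control 5, *Tie2-cko* 6, control 7, *Tie2-cko* 8, and each mean is over these libraries. The largest cluster of ventricular CMs, with 1101 cells in library 5, 461 in library 6, 15 in library 7 and 25 in library 8, had 3 red blood cell genes (*Hba-a1*, *Hba-x* and *Hbb-y*) among its 10 leading genes and all 6 ventricular markers; it was kept, and leaving it out, an alternative added after the data were seen, gave ventricular means of 0.0389 for *Bmp2*, 0.143 for *Bmp4*, 0.163 for *Bmp5*, 0.624 for *Bmp7*, 0.328 for *Bmpr1a*, 0.229 for *Bmpr2* and 0.0384 for *Bmpr1b*. The cell types came from clustering these same cells, so differences in level between them are described and not tested.

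*Bmp2*, the ligand best known for inducing the AVC cushions, was concentrated in AVC CMs, a cluster named from *Tbx2*, *Tbx3*, *Rspo3* and related genes. The level there was 3.24, 4.34, 4.33 and 3.84 UMIs per 10000 (mean 3.94, SD 0.518, n = 4). All 4 libraries were high, and the lowest of them lay above every value in any other cell type. The next level was that of sinus venosus CMs, with 0.684, 0.641, 1.18 and 0.744, which is 4.85-fold lower on the means and did not overlap AVC CMs. OFT CMs came next, with 0.259, 0.506, 0.489 and 0.42, and did not overlap sinus venosus CMs. Below them, cushion mesenchymal cells (MCs) at 0.261, epicardial cells at 0.194 and atrial CMs at 0.151 overlapped their neighbours in the order. Ventricular CMs were low in every library, from 0.0323 to 0.0411. The endocardium held little *Bmp2*, with means of 0.0734 in cushion EdCs and 0.0383 in chamber EdCs, against 0.0127 in red blood cells, which should not make it.

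The same held when cells were compared at equal depth. With each cell thinned to 5000 UMIs, 64.9%, 69.9%, 66.0% and 63.4% of AVC CMs had a *Bmp2* UMI, against a mean of 25% of sinus venosus CMs, 15.8% of OFT CMs and 1.58% of ventricular CMs. The share in red blood cells was 0.68%, which stands for free RNA in the droplets. Without thinning the mean share in AVC CMs was 86.2%. Thinning left out 1 to 9 AVC CMs per library. AVC CMs numbered 210, 75, 365 and 359, yet they held 63.9%, 44.3%, 66.3% and 60.9% of all *Bmp2* UMIs among the kept cells of their library. The lowest of these shares was that of *Tie2-cko* library 6, which had the fewest AVC CMs.

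*Bmp4*, the ligand of OFT myocardium and of the venous pole, marked both ends of the heart tube. In OFT CMs, a cell type named from genes such as *Sema3c*, *Tnc* and *Cxcl12*, it reached 4.19, 4.24, 4.48 and 4.54 UMIs per 10000 (mean 4.36, SD 0.174, n = 4). In sinus venosus CMs, named from *Shox2*, *Hcn4*, *Isl1*, *Tbx18* and *Vsnl1*, it was 3.44, 3.57, 3.6 and 2.57 (mean 3.3). The 4 OFT values lay above the 4 sinus venosus values, though by only 1.32-fold on the means, and sinus venosus CMs lay 4.01-fold above the next type without overlap. AVC CMs, where *Bmp2* was highest, had a *Bmp4* level of 0.418. Ventricular CMs averaged 0.124 and chamber EdCs 0.0325, and red blood cells were at 0.0103.

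Outside the myocardium *Bmp4* was spread over several tissues. The mean was 0.822 in an unnamed cluster led by *Prrx1*, 0.599 in epithelial cells, 0.514 in other MCs, 0.379 in epicardial cells and 0.352 in vascular endothelium. The *Prrx1*-led cluster varied from 0.423 to 1.34 between libraries, and other MCs from 0.0464 in library 8 to 0.901 in library 7, the latter from 26 cells only. Cushion MCs were lower and tighter, at 0.168 to 0.184. OFT CMs held a smaller part of all *Bmp4* UMIs than AVC CMs did of *Bmp2*: 27.5%, 29.8%, 46.6% and 53.3%. The first pair are the libraries richer in non-cardiac tissue, and the cause of the smaller part was not tested.

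**Figure D1:**
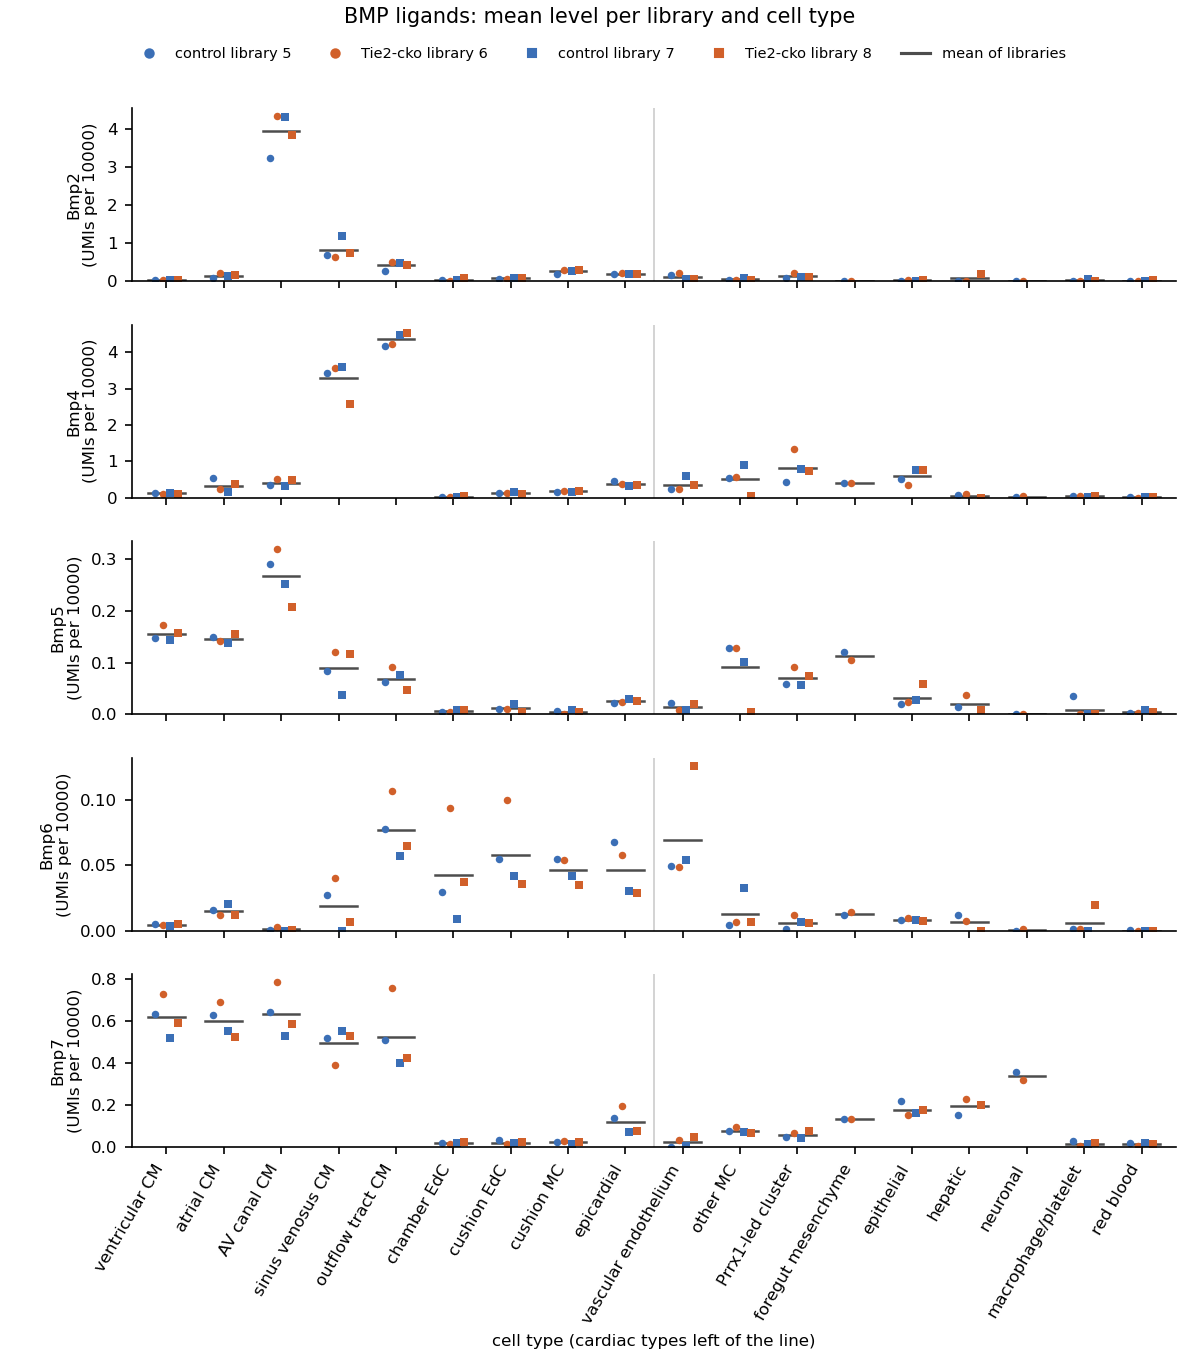
Level of each BMP ligand (vertical axes, UMIs per 10000, each from 0 on its own scale) in 18 cell types (horizontal axis, cardiac types left of the grey line); each point is 1 library (blue control, orange *Tie2-cko*, circles libraries 5 and 6, squares libraries 7 and 8) and each bar is the mean of the libraries. *Bmp2* stands at 3.24 to 4.34 in AVC CMs, *Bmp4* at 4.19 to 4.54 in OFT CMs and 2.57 to 3.6 in sinus venosus CMs, while *Bmp7* is at a like height in all 5 CM regions.

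The CM clusters showed further detail of *Bmp4*. Both OFT clusters carried it, at 3.9 in the larger cluster of 971 cells and at 5.81 in a cluster of 419 cells led by *Cthrc1*, *Phlda2* and *Col1a2*, and their libraries did not overlap (3.67 to 4.06 against 5.42 to 6.46). *Bmp7* went the other way between them, at 0.627 and 0.204. Among the 3 atrial clusters, the 2 large ones had *Bmp4* means of 0.078 and 0.0508. The remaining one, 243 cells led by *Osr1*, *Fabp4*, *Dcaf12l1* and *Nr2f2*, had 2.62, 2.23, 2.39 and 2.66. It made up 97 of 538, 20 of 194, 24 of 504 and 102 of 788 atrial CMs, and the *Bmp4* level of atrial CMs as a whole had the same order, at 0.539, 0.252, 0.167 and 0.39. One ventricular cluster of 400 cells, in which 4 of 6 OFT markers were present, had 1.19, 1.11, 0.91 and 1.15, whereas the other ventricular clusters had means of 0.0295 to 0.15.

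**Figure D2:**
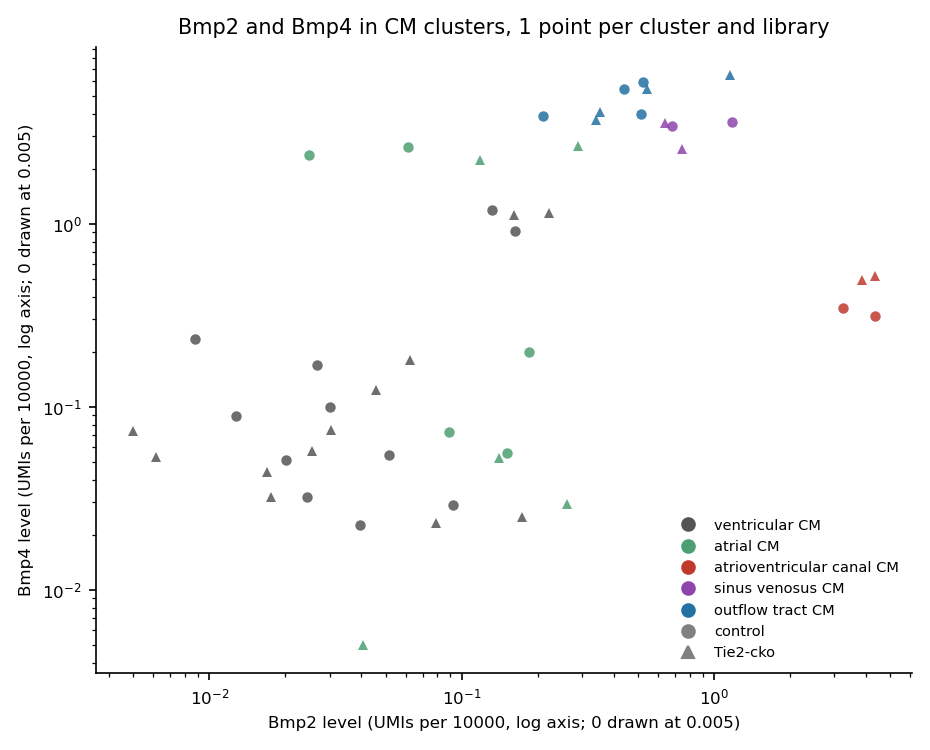
*Bmp2* level (horizontal) against *Bmp4* level (vertical), both in UMIs per 10000 on log axes with a value of 0 drawn at 0.005; each point is 1 CM cluster in 1 library, coloured by CM region, with circles for control and triangles for *Tie2-cko*. AVC CMs sit alone at the right (*Bmp2* 3.24 to 4.34, *Bmp4* 0.314 to 0.52), and the OFT and sinus venosus points sit at the top, joined by 1 atrial cluster near a *Bmp4* level of 2.48.

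Cells with UMIs of more than 1 ligand were also counted. Such shares depend on the share of each ligand alone, and an excess over that was not tested. At 5000 UMIs per cell, *Bmp2* and *Bmp4* were found together in a mean of 22.1% of sinus venosus CMs and 13.7% of OFT CMs, and in 8.7% of AVC CMs. *Bmp2* and *Bmp7* were found together in 20.6% of AVC CMs (24.0%, 21.9%, 18.0% and 18.4%) against 0.462% of ventricular CMs. *Bmp4* and *Bmp7* shared 16.6% of OFT CMs and 13.9% of sinus venosus CMs.

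*Bmp5* and *Bmp7* were both highest in CMs. *Bmp5* was highest in AVC CMs, with 0.291, 0.319, 0.253 and 0.207 UMIs per 10000, 1.73-fold above ventricular CMs (0.147, 0.173, 0.143 and 0.157) and without overlap. Ventricular and atrial CMs, at means of 0.155 and 0.146, did not differ beyond their spread, and sinus venosus and OFT CMs were lower, at 0.0896 and 0.0691. Both EdC classes were near the red blood level of 0.00501, with 0.00666 in chamber and 0.0117 in cushion EdCs. Outside the heart *Bmp5* was seen in foregut mesenchyme (0.121 and 0.106 in libraries 5 and 6, the only ones with at least 20 such cells). Its mean of 0.113 there lay above sinus venosus and OFT CMs. Other MCs (0.0908) and the *Prrx1*-led cluster (0.0705) lay near those CM regions.

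*Bmp7* did not distinguish one CM region from another. Its means were 0.634 in AVC CMs, 0.618 in ventricular CMs, 0.599 in atrial CMs, 0.523 in OFT CMs and 0.497 in sinus venosus CMs, and each overlapped the next in the order. *Tie2-cko* library 6 was the highest in 4 of these 5 regions and the lowest in sinus venosus CMs. Outside CMs the level fell to 0.122 in epicardial cells and to 0.0226 and 0.0235 in chamber and cushion EdCs, which is near the 0.0168 of red blood cells. At 5000 UMIs the share of cells with a *Bmp7* UMI was 24.9% in ventricular CMs, and 0.595% in chamber EdCs against 0.803% in red blood cells, so no endocardial *Bmp7* was detectable over free RNA. Neuronal (0.338), hepatic (0.195) and epithelial cells (0.178) had *Bmp7* of their own.

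*Bmp6* was the ligand with the fewest UMIs, 203 to 385 per library, and the only one whose endocardial level was among its highest. OFT CMs averaged 0.0767, vascular endothelium 0.0695, cushion EdCs 0.0579, epicardial cells 0.0466, cushion MCs 0.0465 and chamber EdCs 0.0425. All neighbours in this order overlapped. AVC CMs, with 1, 3, 0 and 1 *Bmp6* UMIs, were at 0.00119, and ventricular CMs were at 0.00446. In chamber EdCs the 4 libraries were spread widely, at 0.0301, 0.0935, 0.0093 and 0.0371.

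Of the receptors, *Bmpr1a*, the type I receptor needed for cushion formation, was present in nearly every cell type. The highest means were those of epithelial cells (0.572), other MCs (0.562), the *Prrx1*-led cluster (0.554) and cushion EdCs (0.549), and each overlapped the next. Cushion EdCs had 0.48, 0.571, 0.527 and 0.619, and chamber EdCs 0.382, 0.388, 0.412 and 0.48 (mean 0.416), so that the classes met at 0.48. In the myocardium the order was AVC CMs (0.462, 0.52, 0.544 and 0.5), OFT CMs (mean 0.478), sinus venosus CMs (0.379), ventricular CMs (0.307) and atrial CMs (0.278). AVC CMs did not overlap ventricular CMs, which reached 0.333 at most. Vascular endothelium was lower than either EdC class, at 0.0852 to 0.177, and red blood cells were at 0.0257.

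*Bmpr2*, the type II receptor, was highest in EdCs, vascular endothelium and cushion MCs. Cushion EdCs had 0.784, 0.943, 0.839 and 0.857 (mean 0.856, SD 0.0659), vascular endothelium 0.752 on average, chamber EdCs 0.701 and cushion MCs 0.622. Each of these overlapped the next. The *Prrx1*-led cluster averaged 0.507, epithelial cells 0.415, other MCs 0.388 and foregut mesenchyme 0.326. Ventricular CMs (0.19, 0.201, 0.24 and 0.23) and atrial CMs (mean 0.23) were the lowest cardiac types, with epicardial cells at 0.267 and OFT, sinus venosus and AVC CMs at 0.409, 0.402 and 0.399. At 5000 UMIs, 28.7% of chamber EdCs had a *Bmpr2* UMI against 10.3% of ventricular CMs and 0.883% of red blood cells. Cells with UMIs of both *Bmpr1a* and *Bmpr2* made up 7.08% of cushion EdCs (6.75%, 7.63%, 7.21% and 6.75%), 5.56% of chamber EdCs and 1.71% of ventricular CMs.

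*Bmpr1b*, the other type I receptor, was scarce in the heart. Foregut mesenchyme was highest (0.129 and 0.13), followed by epithelial cells (0.0852), the *Prrx1*-led cluster (0.055), epicardial cells (0.0521) and other MCs (0.0511). Among CMs it was nearly confined to ventricular CMs, with 0.0352, 0.0373, 0.0242 and 0.0238 from 145 to 258 UMIs per library, against a mean of 0.00276 or less in atrial, AVC and OFT CMs and of 0.00295 in sinus venosus CMs. Without the ventricular cluster led in part by red blood cell genes, the first pair of ventricular values became 0.0528 and 0.0527. In chamber EdCs there were 1, 0, 3 and 0 *Bmpr1b* UMIs and in cushion EdCs 2, 2, 2 and 0. The thinned shares there, 0.204% and 0.23%, compare with 0.044% in red blood cells, and a level this low could not be told from free RNA at this depth.

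**Figure D3:**
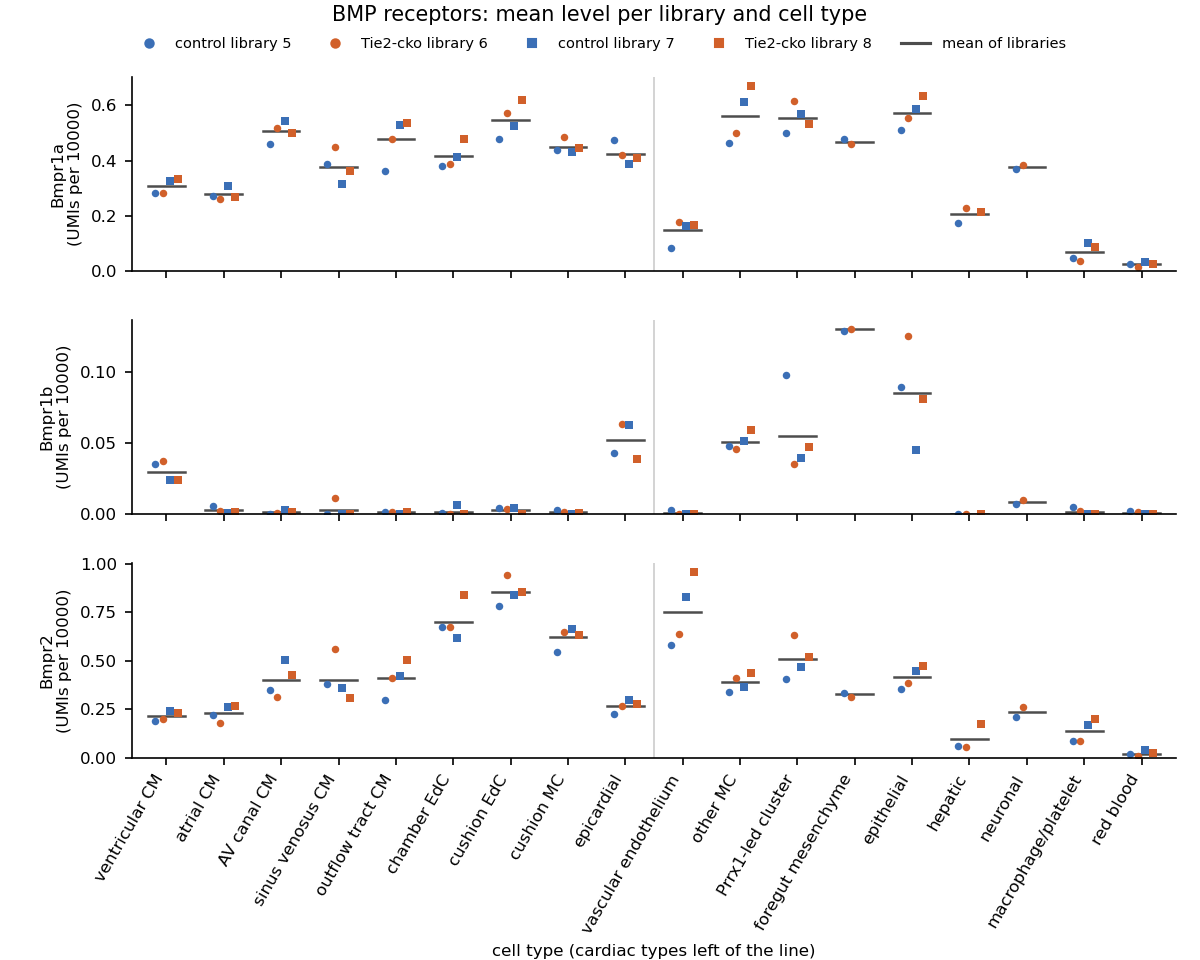
Level of each BMP receptor (vertical axes, UMIs per 10000, each from 0 on its own scale) in 18 cell types (horizontal axis, cardiac types left of the grey line); points are libraries, coloured and shaped by genotype and library, and bars are their means. *Bmpr2* peaks in cushion EdCs at 0.784 to 0.943, *Bmpr1a* is spread over most types, and *Bmpr1b* stays at or below 0.13.

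CM transcripts were found in other cells too, and in EdCs and red blood cells their level was lowest in library 6. The summed level of the 9 CM markers was 12.1, 8.51, 15.1 and 17.4 in chamber EdCs, 12.4, 6.49, 16.6 and 15.7 in cushion EdCs, 35.0 to 41.8 in epicardial cells and 4.62 to 12.4 in red blood cells, against 275 to 514 in the CM regions. The share of the low ligand levels in EdCs and epicardial cells that came with these transcripts was not tested.

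The genes whose pattern over the 18 cell types was most like that of each BMP gene were found among 8403 genes with a level of at least 0.2 in 1 type, by Pearson's r of log2(level + 0.1). The points share libraries and depth, so r is a description. For *Bmp2* they were *Pnmt*, the enzyme that makes adrenaline (r = 0.89), *Oprk1*, the kappa opioid receptor (0.885), and *Rxfp1*, the relaxin receptor (0.876), all highest in AVC CMs. For *Bmp4*, *Gm15222* came first (0.961). It overlaps *Bmp4* on the opposite strand. *Akap5* (0.874) and *Sik1* (0.863) followed. *Bmp5* was most like *Gbe1* (0.906), *Ednra* (0.894) and *Pfkm* (0.893), and *Bmp7* like *Kcnh2* (0.951), *Mfn1* (0.934) and *Apoo* (0.931). *Bmpr1a* was most like *Ube2e2* (0.945), *Ubap1* (0.937) and *Fam168a* (0.934). *Bmpr2* was most like *Kbtbd2* (0.954), *Nck1* (0.947) and *Fstl1* (0.946), the last of which encodes a secreted BMP-binding protein. *Bmp6* and *Bmpr1b* did not reach 0.2 in any type and were not compared.

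The rest of the pathway was described from 5 lists of 51 genes (10 other ligands, 9 other receptors and co-receptors, 4 SMADs, 19 inhibitors and 9 targets). Of the genes chosen for their level in EdCs or CMs, the inhibitors *Bambi*, a decoy receptor, and *Smad6* and *Smad7*, which block receptor signalling inside the cell, were all higher in AVC CMs than in ventricular CMs. *Bambi* was 3.36, 4.16, 5.24 and 4.25 in AVC CMs against 0.937, 1.01, 1.23 and 1.3 in ventricular CMs. *Smad6* was 0.497 against 0.0844 and *Smad7* 1.18 against 0.188 on the means, again without overlap between the libraries. On the means OFT CMs lay between, at 2.48, 0.418 and 0.862.

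The endocardium showed a like split. Cushion EdCs had 0.69, 0.877, 0.898 and 1.08 of *Smad6* against 0.233, 0.297, 0.315 and 0.361 in chamber EdCs, and 2.0, 2.57, 1.94 and 2.16 of *Smad7* against 0.601, 0.784, 0.507 and 0.848. The secreted *Fstl1* had means of 5.07 and 1.67. *Bmper*, a secreted BMP modulator, was named after its values were seen: it averaged 0.316 in cushion EdCs and 0.0193 in chamber EdCs. Cushion MCs were near the cushion EdC level for *Smad7* (1.56) and *Smad6* (0.701).

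Among the targets, the *Id* genes, which encode inhibitors of bHLH transcription factors, differed from one another. *Id1* was 3.04 in OFT CMs and 0.876 in AVC CMs against 0.25 in ventricular CMs. *Id2* was highest among CMs in AVC CMs, with 4.71, 5.14, 6.78 and 6.58 against 1.09, 1.38, 1.8 and 1.79 in ventricular CMs. In the endocardium *Id2* was lower in cushion EdCs in each library, at 1.38, 1.82, 2.08 and 2.83 against 1.81, 1.98, 3.64 and 3.22 in chamber EdCs. *Id3* reached 12.2 in cushion EdCs, 6.9 in chamber EdCs and 12.7 in cushion MCs, and 2.42 in AVC CMs. *Tbx20*, a transcription factor of the AVC and cushions, was 1.95 in AVC CMs against 0.669 in ventricular CMs and 2.94 in cushion EdCs against 0.469 in chamber EdCs. *Msx2* and *Has2*, the latter encoding the enzyme that makes the hyaluronan of the cardiac jelly, were added after their values were seen. *Msx2* averaged 0.726 in AVC CMs, 0.236 in OFT CMs and 0.0509 in ventricular CMs, and *Has2* 0.944 in cushion EdCs and 0.351 in AVC CMs against 0.112 in chamber EdCs.

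**Figure D4:**
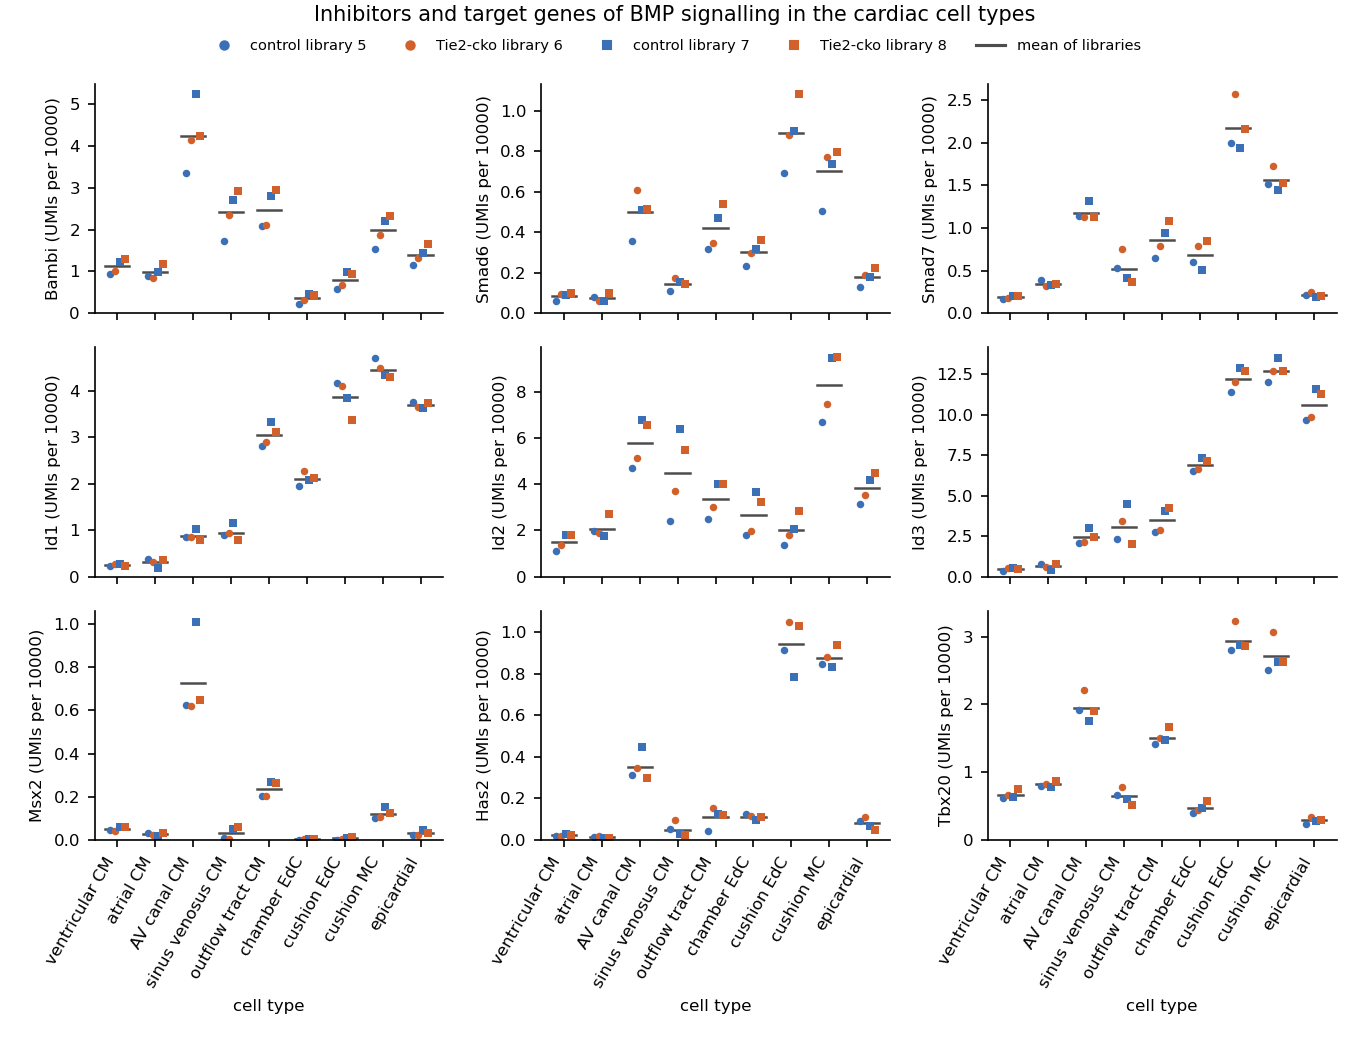
Level of 3 inhibitors (*Bambi*, *Smad6*, *Smad7*) and 6 target genes (*Id1*, *Id2*, *Id3*, *Msx2*, *Has2*, *Tbx20*) of BMP signalling (vertical axes, UMIs per 10000, each from 0 on its own scale) in the 9 cardiac cell types; points are libraries, coloured and shaped by genotype and library, and bars are their means. *Msx2* stands out in AVC CMs (0.622 to 1.01), and *Smad6*, *Smad7*, *Has2* and *Tbx20* are higher in cushion EdCs than in chamber EdCs in all 4 libraries. *Id2* is lower in cushion EdCs than in chamber EdCs in each library.

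Several receptors and SMADs outside the 8 genes differed between the EdC classes as well. The co-receptor *Eng* was 3.43 in cushion and 2.49 in chamber EdCs and near 0.0172 in AVC CMs, and *Tgfbr3* was the reverse, at 0.146 and 0.701. *Acvr1*, a type I receptor for BMPs, was 0.384 and 0.301, and *Acvr2b*, a type II receptor, 0.337 and 0.223. For *Eng* and *Acvr2b* the classes overlapped over the libraries, though within each library cushion EdCs were higher. *Smad1* was 0.381 and 0.251, *Smad4* 0.906 and 0.536, and *Smad9* 0.0221 and 0.00853. *Smad5*, at 0.227 and 0.257, overlapped between the classes and changed direction between libraries. *Smad9* was higher in AVC CMs (0.138) and OFT CMs (0.112) than in ventricular CMs (0.0184). Of the other ligands, *Bmp10*, a ligand of trabecular myocardium, had the highest level in EdCs or CMs and was 0.228 in ventricular CMs and 0.0187 in AVC CMs.

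Loss of endocardial *Tie2* did not move any of the 8 genes past the threshold. Summed UMIs per library and cell type were compared between the 2 control and 2 *Tie2-cko* libraries in 12 cell types with the quasi-likelihood test of edgeR, and p-values were adjusted over all genes (Benjamini-Hochberg). Among the 12, all EdCs and all CMs hold the same cells as the EdC classes and the CM regions, so their tests are not separate. Of 82 tests of the BMP genes, 0 passed an adjusted p of 0.05 (lowest 0.565). DESeq2 also called 0 of the BMP genes at an adjusted p below 0.05. It called 0.165% of all genes in chamber EdCs, 0.0801% in cushion EdCs and 0.096% in all EdCs. At an unadjusted edgeR p below 0.05 there were 5 tests of BMP genes, of which 3 were in chamber EdCs, 1 in all EdCs and 1 in AVC CMs. In these types 7.28%, 5.1% and 3.04% of all genes had such a p. The same fits called few genes of any kind: 0.00866% of all genes tested in chamber EdCs (1 gene, *Tek*), 0.0712% in cushion EdCs (8 genes), 0.008% in all EdCs and 0.0334% in epicardial cells, and 0.0% in all CMs, in each of the 5 CM regions, in cushion MCs and in other MCs. *Tek* itself was lower by a log2 change of -2.52 (SE 0.18, adjusted p = 0.00452) in chamber EdCs and of -2.48 (SE 0.27, adjusted p = 0.0122) in cushion EdCs. In cushion EdCs the *Tek* call is lost when cells of more than 3 times the median UMI number are left out (-2.40, adjusted p = 0.0836), an alternative added after the data were seen.

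The intervals say how much was measured. In 56 of the 82 tests the 95% interval of the log2 fold change stayed within 1 in either direction, and this held in all 12 cell types for *Bmpr1a* and *Bmpr2*. *Bmpr2* in cushion EdCs, its highest type, differed by 0.11 (SE 0.14, interval -0.20 to 0.43), and *Bmpr1a* there by 0.17 (SE 0.15, interval -0.17 to 0.51). Every *Tie2-cko* value of both genes in cushion EdCs lay above every control value, by small amounts. *Bmp4* there split the other way (means 0.144 in control and 0.12 in *Tie2-cko*), as did the scarce *Bmpr1b* (0.00478 and 0.00185). The share of all genes that split the genotypes was not counted, so no change is read from these splits. *Bmpr2* in chamber EdCs differed by 0.23 (SE 0.15) and *Bmpr1a* by -0.02 (SE 0.16). In all CMs *Bmpr2* differed by -0.04 (SE 0.24), *Bmpr1a* by -0.02 (SE 0.17) and *Bmpr1b* by -0.06 (SE 0.32). In other MCs, the tested type where *Bmpr1a* was highest, it differed by 0.24 (SE 0.27), and *Bmpr1b* in epicardial cells by 0.09 (SE 0.33).

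The main source of each ligand was taken here as the tested cell type with its highest control level. At these sources *Bmp2*, *Bmp4*, *Bmp5* and *Bmp7* also had intervals within 1 in either direction, and *Bmp6* did not. *Bmp2* in AVC CMs had a log2 fold change of -0.17 (SE 0.19, interval -0.60 to 0.25). The mean over cells pointed the other way, with 3.78 in control and 4.09 in *Tie2-cko*, and the genotypes overlapped on that scale. *Bmp4* in OFT CMs differed by 0.01 (SE 0.14, interval -0.31 to 0.32), and its group means were 4.34 and 4.39. *Bmp4* in AVC CMs was 0.348 and 0.314 in control and 0.52 and 0.49 in *Tie2-cko*, a log2 fold change of 0.38 (SE 0.16, unadjusted p = 0.0397, adjusted p = 1 by edgeR). *Bmp5* in AVC CMs differed by -0.09 (SE 0.16), *Bmp6* in OFT CMs by 0.43 (SE 0.31, interval -0.27 to 1.13) and *Bmp7* in atrial CMs by 0.08 (SE 0.18). Over all CMs the changes were -0.29 for *Bmp2* (SE 0.31), 0.14 for *Bmp4* (SE 0.14), 0.06 for *Bmp5* (SE 0.10), 0.43 for *Bmp6* (SE 0.23) and 0.09 for *Bmp7* (SE 0.15). With a block for libraries 5 and 6 against 7 and 8, *Bmp2* over all CMs passed the threshold (-0.28, adjusted p = 0.0188), where 0.633% of all genes did, against 0.0% without the block. The sum over all CMs weights CM regions by their cell numbers, and the part of this in the *Bmp2* value was not tested. AVC CMs were 210 of 3118 CMs in library 5, 75 of 1428 in library 6, 365 of 3636 in library 7 and 359 of 4478 in library 8.

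**Figure D5:**
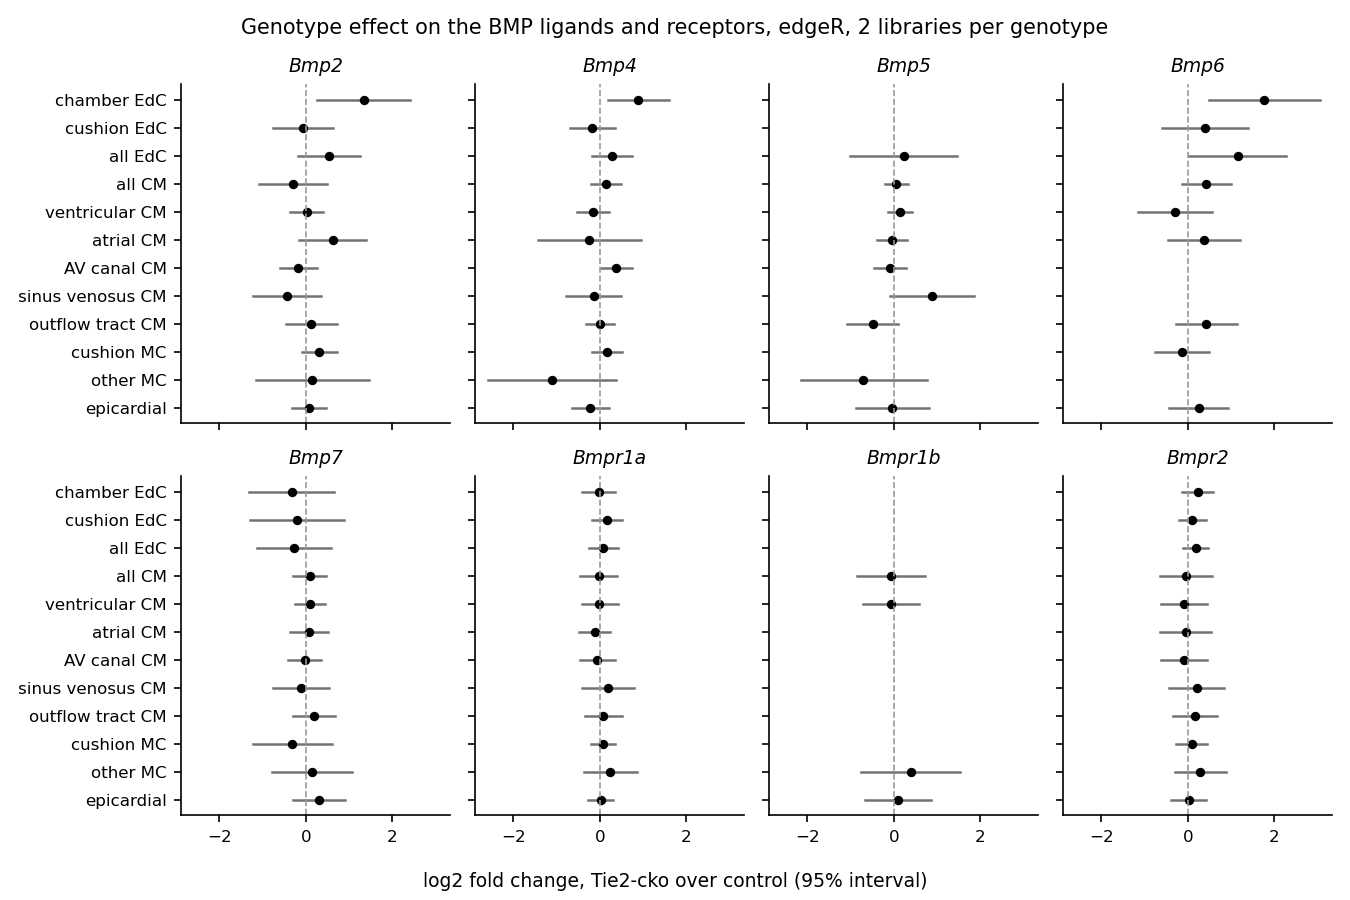
Log2 fold change of each BMP gene, *Tie2-cko* over control (horizontal axes), in 12 cell types (rows); points are edgeR estimates from 2 libraries per genotype, lines their 95% intervals, and the dashed line marks no change. Rows without a point were below the filter on low counts. Most intervals cross the dashed line, and the intervals of *Bmp2*, *Bmp4* and *Bmp6* in chamber EdCs lie above it, at estimates of 1.34, 0.89 and 1.77 that do not pass the adjusted threshold.

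The estimates beyond 1 in either direction were those of *Bmp6* and *Bmp2* in chamber EdCs, *Bmp6* in all EdCs and *Bmp4* in other MCs. In chamber EdCs *Bmp6* had 24 and 9 UMIs in the controls and 60 and 30 in *Tie2-cko*, and its levels did not overlap between the genotypes. The share of all genes without such overlap was not counted. The log2 fold change of *Bmp6* was 1.77 (SE 0.56, interval 0.49 to 3.05, unadjusted p = 0.0125, adjusted p = 0.565 by edgeR). *Bmp2* had 14 and 20 UMIs in control and 18 and 50 in *Tie2-cko*, a log2 fold change of 1.34 (SE 0.47, adjusted p = 0.617). In mean level over cells the genotypes overlapped, with library 6 the lowest of the 4 (0.0177) and library 8 the highest (0.0764). From summed UMIs, which the test uses, they did not, at 0.0187 and 0.0215 in control against 0.0302 and 0.0743. Without cells of more than 3 times the median UMI number, library 6 was again lowest, at 0.0185 against 0.022 and 0.0244 in control. *Bmp4* had 20 and 26 against 33 and 34 UMIs, a log2 fold change of 0.89 (SE 0.30, adjusted p = 0.588). Its levels did not overlap on either scale. *Bmp7* differed by -0.33 (SE 0.43), and *Bmp5* and *Bmpr1b* had too few UMIs to be tested. In all EdCs *Bmp6* differed by 1.16 (SE 0.48, adjusted p = 0.932), and it passed the threshold without the filter on low counts (1.14, adjusted p = 0.00705), where 0.559% of all genes did, and with the block for libraries 5 and 6 against 7 and 8 (1.15, adjusted p = 0.000621), where 5.97% did.

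In other MCs *Bmp4* had 512 and 33 UMIs in the controls and 1182 and 8 in *Tie2-cko*, at levels of 0.537 and 0.901 against 0.571 and 0.0464 that overlapped. It had a log2 fold change of -1.11 (SE 0.66, interval -2.59 to 0.38, adjusted p = 1 by edgeR) and *Bmp5* of -0.70 (SE 0.65). *Bmp4* passed the threshold without the filter on low counts (-1.09, adjusted p = 0.00922), where 0.291% of all genes did. Without *Tie2-cko* library 6, which left library 8 alone for that genotype, *Bmp4* was at -3.97 (adjusted p = 8.3e-14) and *Bmp5* at -4.46 (adjusted p = 0.00126), where 1.69% of all genes passed.

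In chamber EdCs the fit changed which ligands passed the threshold while their estimates stayed nearly the same, and leaving out single libraries moved the estimates. Without the filter on low counts, *Bmp6* (1.76, adjusted p = 0.000106) and *Bmp2* (1.32, adjusted p = 0.0321) passed the threshold, where 0.929% of all genes did. With the block for libraries 5 and 6 against 7 and 8, *Bmp6* (1.77, adjusted p = 0.000132) and *Bmp2* (1.33, adjusted p = 0.0109) passed, where 7.01% of all genes did. Without control library 5, *Bmp6* was at 2.82 (adjusted p = 0.000275), where 1.23% of all genes passed, and it ranged down to 1.09 without control library 7. *Bmp2* was at 0.49 without *Tie2-cko* library 8. In library 6, 22 of 139 chamber EdCs had more than 3 times the median UMI number. These 22 cells held 45.6% of the UMIs, including 12 of 18 for *Bmp2*, 22 of 33 for *Bmp4* and 27 of 60 for *Bmp6*. Without them the summed level of *Bmp6* in library 6 was 0.102 against 0.101 with them, whereas that of *Bmp2* went from 0.0302 to 0.0185 and that of *Bmp4* from 0.0554 to 0.0339 UMIs per 10000. In the other libraries such cells held 16.4% to 21.1% of the UMIs.

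In cushion EdCs the log2 fold change was -0.07 for *Bmp2* (SE 0.31) and -0.17 for *Bmp4* (SE 0.23). *Bmp6*, at 0.40 (SE 0.44, interval -0.59 to 1.40), and *Bmp7*, at -0.21 (SE 0.48, interval -1.30 to 0.87), were measured less closely there. The difference of the genotype effect, cushion minus chamber, was tested in a fit with the library as a block, which called 0.868% of all genes and 0 of the 6 BMP genes tested (3 had an unadjusted p below 0.05, as did 9.86% of all genes). Without the library block that fit called 0.0% of all genes. It was -1.42 for *Bmp2* (SE 0.44, adjusted p = 0.172 by edgeR), -1.05 for *Bmp4* (SE 0.35, adjusted p = 0.223) and -1.35 for *Bmp6* (SE 0.45, adjusted p = 0.22), and 0.12, 0.19 and -0.11 for *Bmp7*, *Bmpr1a* and *Bmpr2*. For *Bmp2* it passed without the filter on low counts (-1.40, adjusted p = 0.039), without control library 5 (-1.62, adjusted p = 0.042) and without *Tie2-cko* library 6 (-1.90, adjusted p = 0.029), where 1.05%, 2.03% and 0.554% of all genes passed.

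The rest of the pathway also gave no call. Over the 5 lists, 388 tests in the 12 cell types had 0 genes higher and 0 lower past the threshold by edgeR, and 0 by DESeq2. At an unadjusted edgeR p below 0.05 there were 10. Over the 12 cell types together, 1.98% of the tests of all genes had an unadjusted p below 0.05, from 0.454% in all CMs to 7.28% in chamber EdCs. The counts at an unadjusted p were 0 of 14 tests for other ligands, 1 of 90 for other receptors, 1 of 45 for SMADs, 7 of 139 for inhibitors and 1 of 100 for targets. In chamber EdCs the median log2 fold change was 0.26 for inhibitors, 0.28 for SMADs, 0.17 for other receptors and 0.00 for targets, beside 0.00 over all genes. There 3 inhibitors had an unadjusted p below 0.05 by edgeR, and they did not share a direction. *Smad7* had an estimate of 0.51 (SE 0.15, adjusted p = 0.484), with the levels given above. *Bmper* had 1.27 (SE 0.41, adjusted p = 0.588) and *Sost* -0.77 (SE 0.23, adjusted p = 0.498).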

How the data were processed

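The authors deposited, for each of 4 libraries, a filtered 10x Genomics matrix of UMI counts per gene and cell, and no cell annotation was used here. Per the file headers the counts came from Cell Ranger 6.1.2, and the submitters' processing notes name the build mm10. The annotation behind the counts is not given in the sources used here. Gene positions were read from GENCODE annotation of GRCm38, in which 32235 of 32285 gene IDs were found.

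Barcodes needed 500 genes and 1000 UMIs or more, and a mitochondrial share of no more than 10%, and the highest Scrublet scores were removed at 0.8% per 1000 barcodes (scanpy 1.11.5). Cells were clustered with Seurat 5.3.0 (2000 variable genes, 30 principal components, 20 neighbours, resolution 0.8) without the 8 BMP genes and 51 pathway genes, and CMs were clustered again alone into 14 clusters. A marker was present where its level was at least 0.25 of its highest cluster, and a name needed at least 3 markers and over 0.5 of the list. A CM cluster that met this for several regions took the region with the highest mean marker level relative to the highest cluster. A CM cluster was left unnamed where its 10 leading genes held more markers of another cell type than of CMs. These naming rules were chosen with the clusters known, and the last was changed from a limit of 3 such markers, which had left the largest ventricular cluster out. Clusters with a median UMI number under 0.333 of the median of their libraries were not named.

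The level of a gene is the average, over the cells of a type, of its UMIs per 10000, in libraries with at least 20 cells of a type. Shares of cells with a UMI were taken after each cell was thinned to 5000 UMIs. For genotype, UMI counts were added up within each library for every cell type and tested with edgeR 4.0.16 (TMM normalisation, filterByExpr, quasi-likelihood F test, Benjamini-Hochberg over all genes of that cell type, threshold 0.05) in R 4.3.3. SEs were taken as the log2 fold change over the root of F. DESeq2 1.42.0 was an alternative. The scripts were tested on simulated data.

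The BMP genes, the pathway lists and the markers were chosen with earlier results of these data known. Genes named beside them were those past the threshold and otherwise up to 4 per list with the highest level in EdCs or CMs, and for each BMP gene the 3 most alike in pattern, with exceptions named in the text.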

Additional observations from a re-analysis of the deposited data

How the results depend on the processing

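The cardiac type with the highest level was the same in every alternative clustering, filter, unit and doublet setting run for each BMP gene except *Bmp7*, for which it became atrial CMs at resolution 1.2. Counts of BMP genes past the threshold, 0 in every cell type, became 2 in chamber EdCs without a filter on low counts and 2 with the block for libraries 5 and 6 against 7 and 8 (0 to 1 with 1 library left out), 1 and 1 in all EdCs, 1 in all CMs with the block, 1 in other MCs without the filter (0 to 2 with 1 library left out) and 1 for cushion minus chamber EdCs without the filter (0 to 1 with 1 library left out). In other MCs the 2 calls came without *Tie2-cko* library 6, and in chamber EdCs the call came without control library 5. The cause was not tested.

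Some estimates changed sign without passing the threshold. For *Bmp2* in AVC CMs the change became 0.03 with stricter cell filters and 0.07 without cells of high UMI number. For *Bmp5* in AVC CMs these were 0.21 and 0.01. *Bmp4* in OFT CMs became -0.06 with stricter cell filters and -0.02 with doublet removal at 1.6% per 1000 barcodes, *Bmp7* in cushion EdCs 0.14 with that doublet removal and 0.02 with the BMP genes among the variable genes, and *Bmpr1b* in epicardial cells -0.06 with that doublet removal and -0.05 without cells of high UMI number.

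With 1 library left out, *Bmp2* ranged from -0.36 to 0.36 in cushion EdCs, from -0.64 to 0.13 in all CMs and from -0.39 to 0.08 in AVC CMs. *Bmp4* ranged from -0.02 to 0.29 in all CMs and from -0.07 to 0.07 in OFT CMs, and *Bmp6* from -0.16 to 0.88 in cushion EdCs. *Bmp7* ranged from -0.65 to 0.29 in cushion EdCs, from -0.05 to 0.23 in all CMs, from -0.16 to 0.29 in atrial CMs and from -0.06 to 0.34 for cushion minus chamber EdCs. *Bmpr1a* ranged from -0.24 to 0.16 in chamber EdCs, from -0.20 to 0.14 in all CMs and from -0.02 to 0.53 in other MCs. *Bmpr1b* ranged from -0.39 to 0.30 in all CMs and from -0.31 to 0.49 in epicardial cells, and *Bmpr2* from -0.33 to 0.21 in all CMs and from -0.29 to 0.09 for cushion minus chamber EdCs.

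The *Bmp4* level in OFT CMs was 4.04 from summed UMIs, 4.57 with stricter cell filters, 3.93 at resolution 1.2 and 4.18 with the BMP genes among the variable genes. The share of cells with a UMI depended on depth. At 3000 UMIs per cell and without thinning it was 53.4% and 86.2% for *Bmp2* in AVC CMs, 61.7% and 93.6% for *Bmp4* in OFT CMs, 7.68% and 45.5% for *Bmp5* in AVC CMs, 16.2% and 68.9% for *Bmp7* in AVC CMs, 17.2% and 54.8% for *Bmpr1a* in cushion EdCs, 0.987% and 10.48% for *Bmpr1b* in epicardial cells and 23.6% and 64.6% for *Bmpr2* in cushion EdCs. *Bmp6* in OFT CMs was 14.2% without thinning. Other MCs could not be computed with that doublet removal or at resolution 1.2. The labels give the genotypes no shared replicate number. The block for libraries 5 and 6 against 7 and 8, which pairs each control with a *Tie2-cko* library, was chosen from the tissue content of the libraries and not from a label. With 2 libraries per genotype, and the left-out genotype's lone library assumed to vary like the other, low counts limit *Bmp5*, *Bmp6* and *Bmpr1b* most.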
